A study of Homo sapiens with 4 samples.

Results

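The genes described here are very long protein-coding genes, each of which covers about 300 kb or more of the human genome. They were listed by name for their genomic span and not for any measured value, although earlier results of these data were known. The list holds 59 of the 60725 genes in the count table. Of these 59 genes, 57 had at least 10 counts in at least 2 libraries and were tested together with all 15356 genes that passed the same filter. RNA was sequenced from RPE1 cells of human retinal pigment epithelium, an established line immortalized with hTERT, which here also express the SunTag imaging system. Cells received 10 nM of siRNA, received it again 48 h later and were harvested 72 h after the second transfection, on day 5. The 2 control libraries came from cells given the siRNA Silencer Select Negative Control No. 2, and a Dharmacon pool of siRNAs against TOP2B was given for the 2 knockdown libraries, so the groups differ in siRNA product as well as in target. All 4 libraries share the hTERT and SunTag background, and the sources used here do not state whether the SunTag cells are 1 clone. The p-values measure the spread between these libraries, 2 in each group.

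RNA polymerase II unwinds DNA as it moves, which leaves overwound DNA ahead of the enzyme and underwound DNA behind it. Topoisomerases I and II remove this torsional stress, and TOP2B, the type II enzyme that is also present in cells that do not divide, cuts and reseals both strands to do so. Very long genes consist mostly of introns that the polymerase must cross before an mRNA is finished, and in neurons the output of long genes is known to be sensitive to topoisomerase inhibitors. Several genes on the list, among them FHIT, WWOX, IMMP2L and MACROD2, also lie at common fragile sites, regions that break when replication is slowed.

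Total counts lay between 20310259 and 23887013 per library, so that 1 CPM, the unit of counts scaled to the library total, rested on 20.3 to 23.9 reads. TOP2B itself (chr3:25597978-25664909, minus strand, GRCh38) had 154.9 and 143.5 CPM in the control libraries and 15.3 and 13.3 CPM in the knockdown libraries, and 9.58% of the control level was left (log2 fold change -3.38, SE 0.14, edgeR adjusted p = 5.1e-06). Of 10 retinal pigment epithelium markers 5 passed the filter, and the pigment and visual cycle genes TYR and RPE65 had 0 counts in all 4 libraries. The summed level of that list was 53.3 to 54.7 CPM in control and 61.8 to 63.4 CPM in knockdown libraries. Most of this sum came from the markers MITF and OTX2, which were present in all 4 libraries. The summed level of 7 markers of simple epithelium and mesenchyme, of which 5 passed, was 4455 to 4667 CPM in control and 5830.5 to 6595 CPM in knockdown libraries. That order came from FN1, the fibronectin gene, with 1919.8 and 1427 CPM in control and 4181 and 3124 CPM in knockdown libraries. Without FN1 the sum was 2747 to 3027 CPM in control and 2414 to 2706 CPM in knockdown libraries. Of 8 neuron markers 3 passed, and their sum was 129.7 to 144.4 CPM in control and 112.1 to 126.9 CPM in knockdown libraries. None of 6 blood cell markers passed, 3 of them had 0 counts in all libraries, and their sum was 0.437 to 0.502 CPM in control and 0.197 to 0.237 CPM in knockdown libraries. The part of these differences in the values below was not tested.

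The 57 tested genes lie on 19 chromosomes, 10 of them on chromosome 3. Their spans ran from 314.7 kb (FMNL2, a formin) to 2242 kb (DMD, which encodes dystrophin), with a median of 685 kb, against a median of 34.7 kb for the 12542 protein-coding genes tested. The largest single intron had a median length of 179 kb and exceeded 100 kb in 53 of the 57 genes, and it reached 779 kb in WWOX. Mature transcripts were also longer, with a median of 7177 nt against 3427 nt, but exons made up a median of only 1.97% of the span against 16.3%. Per kb of transcript the listed genes had a median level of 6.17 CPM, against 8.76 CPM for all coding genes tested. TRIO (47.9 CPM per kb), a guanine nucleotide exchange factor of small GTPases, and ASAP1 (47.0 CPM per kb), a GTPase-activating protein of Arf, stood highest on this scale and ZBTB20 (0.070 CPM per kb), a zinc finger repressor, stood lowest. All 59 listed genes together took 0.410% to 0.436% of the counts in each library.

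The starts of these genes did not share 1 base composition, as the promoters of the genes with the largest difference in each direction among those called show. The sequences below are the 250 bases before and 50 bases after the annotated start, from RefSeq on GRCh38.p14, with every CG pair in capitals. SLIT2 was at chr4:20251655-20251954 and GPC6 at chr13:93226557-93226856, both on the plus strand.
SLIT2: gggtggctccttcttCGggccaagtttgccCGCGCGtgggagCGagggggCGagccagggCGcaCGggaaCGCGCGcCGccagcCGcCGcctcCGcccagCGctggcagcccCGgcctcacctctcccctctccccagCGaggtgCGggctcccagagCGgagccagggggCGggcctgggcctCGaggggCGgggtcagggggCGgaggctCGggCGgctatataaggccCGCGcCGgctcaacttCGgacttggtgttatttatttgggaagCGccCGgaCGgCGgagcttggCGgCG
GPC6: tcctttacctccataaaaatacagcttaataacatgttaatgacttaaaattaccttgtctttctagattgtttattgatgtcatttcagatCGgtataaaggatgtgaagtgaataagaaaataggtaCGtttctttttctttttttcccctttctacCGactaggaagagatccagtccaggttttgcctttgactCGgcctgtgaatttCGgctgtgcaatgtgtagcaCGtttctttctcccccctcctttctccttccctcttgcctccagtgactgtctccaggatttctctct
The SLIT2 window held 36 CG pairs and 74.3% G and C, and the GPC6 window 6 CG pairs and 40% G and C. The shown pair does not stand for the direction of the other called genes. FOXP1, called higher, had 41 CG pairs and 75% G and C. CUX1, PTPRG and PRKG1, called lower, had 39, 34 and 21 CG pairs and 75.3%, 68.7% and 65.3% G and C. Of the 57 tested genes 50 had a RefSeq promoter in the table used. Their median G and C content was 64.7%, with a range of 32.3% to 82.3%, against 65.3% over 10261 coding genes tested. The letters TATAAA, searched on both strands, stood in the windows of GPC6 and FNDC3B, 4% of the 50, against 5.51% of the coding genes tested and 12.0% of all 27305 promoters in the table. A match is a description of the letters and not of a working site.

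Upon TOP2B knockdown, 2 of the 57 genes rose and 4 fell at an edgeR quasi-likelihood adjusted p below 0.05, and 51 were not called. The genes that rose were SLIT2 and FOXP1, and those that fell were GPC6, PTPRG, PRKG1 and CUX1. The 6 called genes are 10.5% of the list, and 10.8% of all 15356 genes tested were called, so the share is near the background and is not a result about these genes. By direction, 3.51% of the list was higher and 7.02% lower, against 6.66% and 4.18% of all genes. The median log2 fold change of the list was -0.05, with quartiles of -0.26 and 0.16, against -0.00 for all genes and -0.02 for coding genes. In these bulk samples, fewer cells of a type and less RNA per cell cannot be told apart.

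The libraries of the groups did not overlap for 36 of the 57 genes (63.2%), 13 with the knockdown above and 23 with it below, while 54.3% of all genes (27.7% above and 26.6% below) and 56.4% of coding genes did not overlap. An unadjusted p below 0.05 was reached by 17 genes (29.8%) against 26.3% of all and 28.9% of coding genes. The 95% interval of the log2 fold change lay within -1 and 1 for 52 of the 57 genes (73.3% of all and 81.8% of coding genes), so that for most of the list a change of 2-fold or more in either direction fell outside the interval. The genes whose interval reached past these bounds were GPC6, PTPRG, PRKG1, SLIT2 and DLG2. The median level was 44.8 CPM in the list, 20.8 CPM over all genes and 31.3 CPM over coding genes. The median standard errors were 0.134, 0.158 and 0.146. The part of level in the width of the intervals was not tested.

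**Figure D1:**
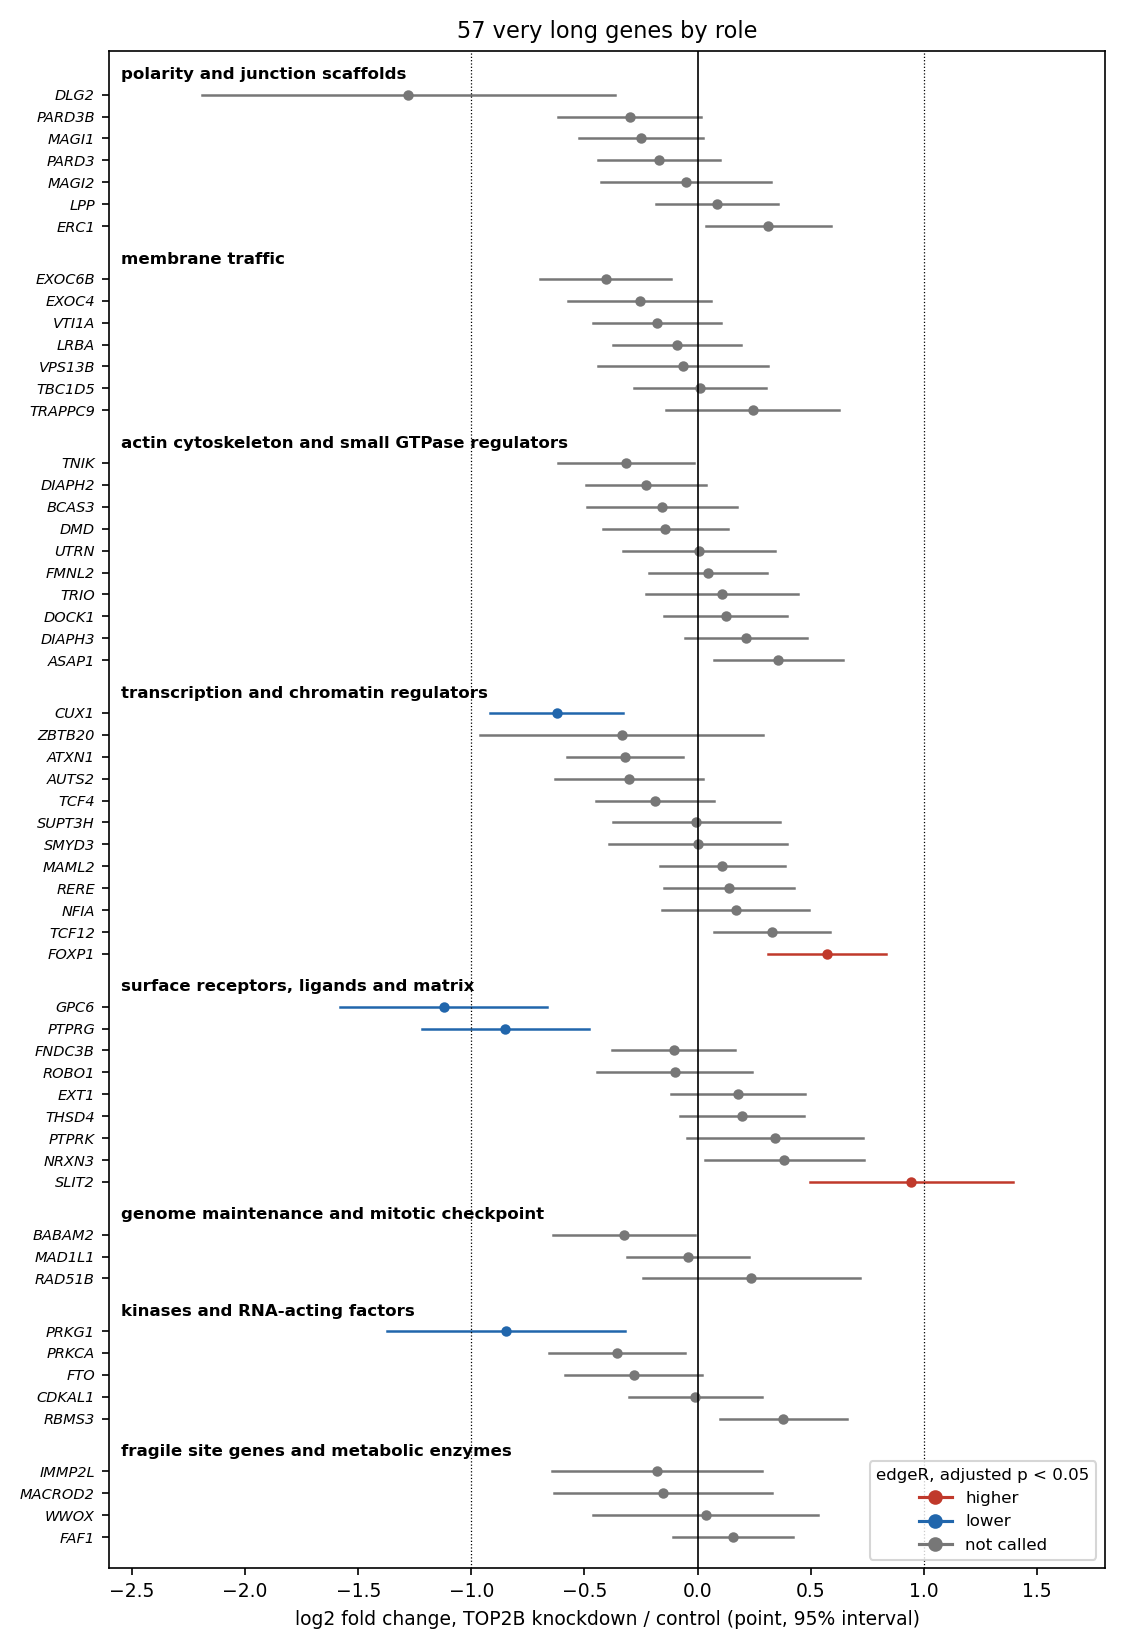
Log2 fold change (TOP2B knockdown over control) of the 57 tested genes, grouped by role, with 95% intervals from edgeR fitted on 2 libraries per group. Red marks the 2 genes called higher and blue the 4 called lower, and most other intervals include 0.

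At the cell surface, GPC6 (ENSG00000183098, chr13:93226807-94408020, plus strand, 1181 kb) encodes glypican 6, a heparan sulfate proteoglycan anchored to the membrane by a lipid. It had 9.65 and 7.81 CPM in the control libraries and 4.44 and 3.57 CPM in the knockdown libraries, 8.73 ± 1.30 against 4.00 ± 0.612 (SD, n = 2 each). Both knockdown libraries lay below both control libraries, and 45.9% of the control level was left. The log2 fold change was -1.12 (SE 0.21, edgeR adjusted p = 0.00864), the largest fall among the called genes of the list. Its promoter is the CG-poor sequence printed above, and its largest intron covers 318 kb. Of its exon bases 7.18% are shared with another annotated gene.

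PTPRG (ENSG00000144724, chr3:61561569-62297609, plus strand, 736 kb) encodes a receptor-type tyrosine phosphatase. Its level was 48.4 and 37.1 CPM in the control and 26.5 and 20.9 CPM in the knockdown libraries, 42.7 ± 7.95 against 23.7 ± 3.92 (SD, n = 2 each). The groups did not overlap, although replicate 2 lay below replicate 1 in both groups (log2 differences of -0.38 in control and -0.34 in knockdown). PTPRG fell to 55.5% of the control level (log2 fold change -0.85, SE 0.17, edgeR adjusted p = 0.0116). The related receptor phosphatase PTPRK, which spans 552 kb, had 164.0 and 120.0 CPM in control and 201.6 and 158.9 CPM in knockdown libraries, which overlap. Its log2 fold change was 0.34 (SE 0.17, edgeR adjusted p = 0.246), so the related pair had values of opposite sign, of which only that of PTPRG was called. The difference between the pair was not tested.

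SLIT2 (ENSG00000145147, chr4:20251905-20620561, plus strand, 369 kb) encodes a secreted guidance ligand that binds ROBO receptors. It had 10.6 and 8.20 CPM in the control and 21.2 and 15.0 CPM in the knockdown libraries, 9.40 ± 1.70 against 18.1 ± 4.36 (SD, n = 2 each). Both knockdown libraries lay above both control libraries, and SLIT2 rose to 192% of the control level (log2 fold change 0.94, SE 0.20, edgeR adjusted p = 0.0169). The receptor gene ROBO1, more than 1000 kb long, had 31.4 and 25.4 CPM in control and 29.1 and 23.9 CPM in knockdown libraries. Its groups overlapped and its log2 fold change was -0.10 (95% interval -0.44 to 0.24, edgeR adjusted p = 0.728), so the ligand was called and this receptor was not. For GPC6, PTPRG and SLIT2 the first replicate lay above the second in both groups, and each stayed called without any 1 of the 4 libraries.

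The other surface and matrix genes were not called. EXT1, a polymerase that builds the heparan sulfate chains carried by glypicans, had 255.3 and 238.9 CPM in control and 295.4 and 263.9 CPM in knockdown libraries (log2 fold change 0.18). FNDC3B, a membrane protein with fibronectin type III domains, had a log2 fold change of -0.11, THSD4, a matrix protein related to the ADAMTS enzymes, 0.20, and NRXN3, a neurexin known from synapses, 0.38. The 9 surface genes thus held 1 that rose and 2 that fell, with a median log2 fold change of 0.18. These are 33.3% of 9 genes, beside 10.8% of all genes and 12.4% of coding genes called. The role groups were made with earlier results of these data known, so their shares are a description only.

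**Figure D2:**
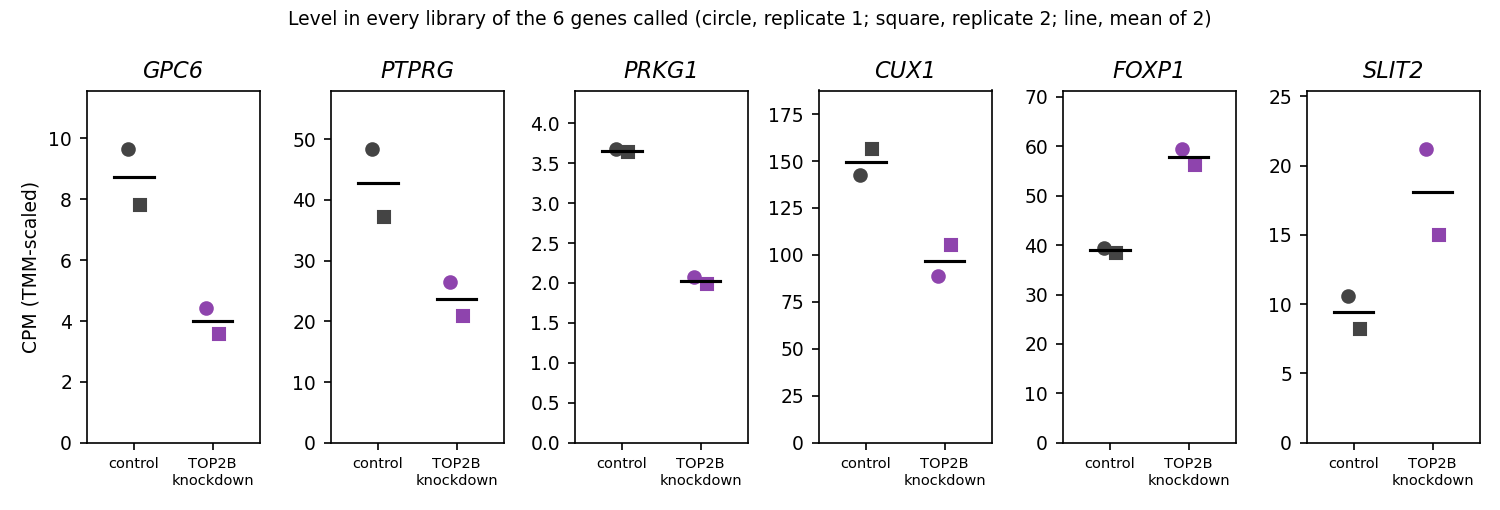
Level of the 6 called genes in CPM, with a circle for replicate 1, a square for replicate 2 and a line at the mean of the 2 libraries of each group. In each panel the points of the 2 groups do not overlap, and the axes start at 0.

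Among 12 transcription and chromatin regulators, FOXP1 rose and CUX1 fell, 16.7% of the group beside 10.8% of all genes. FOXP1 (ENSG00000114861, chr3:70954693-71583978, minus strand, 629 kb), a forkhead repressor, had 39.4 and 38.4 CPM in the control and 59.4 and 56.3 CPM in the knockdown libraries, 38.9 ± 0.70 against 57.8 ± 2.21 (SD, n = 2 each). The libraries of a group lay close together and the groups well apart. The log2 fold change was 0.57 (SE 0.12, edgeR adjusted p = 0.0138), and the adjusted p was 0.0524 without control replicate 2 and 0.0517 without knockdown replicate 1.

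CUX1 (ENSG00000257923, chr7:101815904-102283958, plus strand, 468 kb) is a locus that encodes a homeodomain transcription factor and, by another choice of exons, a Golgi protein named CASP, and the gene count does not separate them. The locus had 142.6 and 156.3 CPM in the control and 88.7 and 105.4 CPM in the knockdown libraries, 149.4 ± 9.69 against 97.0 ± 11.8 (SD, n = 2 each). All knockdown values lay below the control values, and the locus fell to 64.9% of control (log2 fold change -0.62, SE 0.13, edgeR adjusted p = 0.0167). The edgeR adjusted p was 0.0590 without control replicate 2 and 0.129 without knockdown replicate 1, with log2 fold changes of -0.55 and -0.50.

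None of the other 10 regulators was called. The most abundant was RERE, a nuclear receptor corepressor, with 190.5 and 187.3 CPM in control and 221.3 and 194.4 CPM in knockdown libraries (log2 fold change 0.14). Of the E proteins, helix-loop-helix factors that bind E-boxes, TCF12 had 73.7 and 70.8 CPM in control and 89.3 and 92.2 CPM in knockdown libraries (log2 fold change 0.33, edgeR adjusted p = 0.0991) and TCF4 had 47.6 and 45.8 against 40.5 and 41.5 CPM (log2 fold change -0.19, edgeR adjusted p = 0.343). The groups did not overlap for either E protein gene, and the values had opposite signs. ATXN1, the ataxin 1 gene, had a log2 fold change of -0.32, AUTS2, a gene for a Polycomb-associated protein, -0.30, and ZBTB20 -0.34. NFIA, a nuclear factor I protein, had 0.17 and MAML2, a Notch coactivator, 0.11. The histone methyltransferase family gene SMYD3 and the SAGA subunit gene SUPT3H had values of 0.00 and -0.01. For ZBTB20, 44.9% of exon bases are shared with another gene and its count is uncertain, since the sources used here conflict on strand and do not give the setting used for counting.

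Among 5 kinases and RNA-acting factors, PRKG1 fell, 1 gene beside a background of 10.8%. PRKG1 (ENSG00000185532, chr10:50990888-52298423, plus strand, 1308 kb), the cGMP-dependent protein kinase that acts in smooth muscle relaxation, was covered by 88 and 83 reads in control libraries and by 44 and 40 reads in knockdown libraries. These numbers equal 3.67 and 3.64 CPM against 2.08 and 1.98 CPM, 3.66 ± 0.0237 against 2.03 ± 0.0654 (SD, n = 2 each). The groups did not overlap, and the log2 fold change was -0.85 (SE 0.24, edgeR adjusted p = 0.0484). The edgeR adjusted p was 0.0509 with library size alone and 0.111 to 0.167 without any 1 of the libraries, and the DESeq2 adjusted p was 0.145, so the call is near the limit of this depth.

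The most abundant of the other 4 was PRKCA, protein kinase C alpha, with 212.2 and 247.5 CPM in control and 173.1 and 186.1 CPM in knockdown libraries (log2 fold change -0.36, edgeR adjusted p = 0.124). FTO, an RNA demethylase, had 73.2 and 83.6 against 58.4 and 70.5 CPM (log2 fold change -0.28), and the RNA-binding protein gene RBMS3 26.9 and 24.3 against 32.7 and 34.0 CPM (log2 fold change 0.38, edgeR adjusted p = 0.0862). Knockdown values were below control for PRKCA and FTO and above it for RBMS3, with no overlap. CDKAL1, which modifies a tRNA, had overlapping groups and a log2 fold change of -0.01.

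None of the 10 genes for actin and small GTPase regulators was called, beside 10.8% of all genes, and their median log2 fold change was 0.03. TRIO, the most abundant listed gene, had 550.0 and 505.6 CPM in control and 616.4 and 522.3 CPM in knockdown libraries, which overlap (log2 fold change 0.11). ASAP1 had 253.2 and 262.8 against 329.3 and 331.8 CPM, without overlap (log2 fold change 0.36, 95% interval 0.07 to 0.64, edgeR adjusted p = 0.108). DMD, the longest gene tested, had 29.1 and 29.8 against 25.8 and 27.6 CPM, with a log2 fold change of -0.14 (95% interval -0.42 to 0.13, edgeR adjusted p = 0.511). Its autosomal relative UTRN, which encodes utrophin, had 138.0 and 119.5 against 145.8 and 112.5 CPM, with a log2 fold change of 0.00. The formin gene DIAPH3 had 0.21 and DIAPH2 -0.23, and neither was called. The formin FMNL2 and the Rac activator DOCK1 had log2 fold changes of 0.05 and 0.12, BCAS3, linked to cell migration, -0.16, and the kinase TNIK -0.32.

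None of the 7 polarity and junction scaffolds and none of the 7 membrane traffic genes was called, beside 10.8% of all genes. Their median log2 fold changes were -0.17 and -0.09. The most abundant scaffold genes were ERC1, an active zone and cortex scaffold, with 96.6 and 92.0 CPM in control and 125.1 and 109.3 CPM in knockdown libraries (log2 fold change 0.31), and LPP, an adhesion protein of the zyxin family (0.09). PARD3 and PARD3B, scaffolds of the apical polarity complex, had log2 fold changes of -0.17 and -0.30, and the inverted membrane-associated guanylate kinases MAGI1 and MAGI2 -0.25 and -0.05. DLG2, a scaffold known from synapses and 2173 kb long, was covered by 23 and 24 reads in control and by 9 and 8 reads in knockdown libraries. Its groups did not overlap, and its log2 fold change of -1.28 (SE 0.41, edgeR adjusted p = 0.0765) was the lowest of the list without being called. Both knockdown counts lay below the count limit of the filter, so DLG2 was tested only because of its control libraries. A gene at this depth enters the test through the group in which it is higher, so the filter itself favoured a difference between the groups.

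In the traffic group, EXOC4 and EXOC6B encode subunits of the exocyst, the complex that tethers secretory vesicles to the plasma membrane. EXOC4 had 136.4 and 163.2 CPM in control and 114.7 and 136.1 CPM in knockdown libraries (log2 fold change -0.26), and EXOC6B had 99.2 and 107.0 against 71.0 and 84.6 CPM (log2 fold change -0.41, edgeR adjusted p = 0.0744). Both subunits lay lower in the knockdown without overlap and without a call. TBC1D5, a GTPase-activating protein of Rab7 and the longest gene of the group at 1288 kb, had 133.6 and 157.6 against 142.0 and 151.3 CPM (log2 fold change 0.01). LRBA, which protects CTLA4 from lysosomes, had -0.09, the bridge-like lipid transfer protein VPS13B -0.06, the SNARE VTI1A -0.18 and the TRAPP subunit TRAPPC9 0.24.

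The fragile site and enzyme group held 4 tested genes, the genome maintenance group 3, and none was called, beside 10.8% of all genes. FAF1, a ubiquitin-binding cofactor of the VCP ATPase, had 56.5 and 61.8 CPM in control and 64.1 and 67.8 CPM in knockdown libraries (log2 fold change 0.16). The oxidoreductase WWOX, the ADP-ribose hydrolase MACROD2 and the mitochondrial peptidase subunit IMMP2L had log2 fold changes of 0.04, -0.15 and -0.18, at 3.26 to 6.89 CPM per library, and their groups overlapped. MAD1L1, a spindle checkpoint protein, had -0.04, with 43.2% of its exon bases shared with another gene and so an uncertain count. BABAM2, a subunit of the BRCA1-A complex, had 32.2 and 38.6 against 26.2 and 30.3 CPM (log2 fold change -0.33), and RAD51B, a gene of homologous recombination, had 0.24.

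The genes below the filter were FHIT and LRP1B. FHIT, the diadenosine triphosphate hydrolase of a common fragile site, covers 1504 kb for a coding sequence of 441 nt. It was covered by 2 and 0 reads in control libraries and by 0 and 1 read in knockdown libraries. LRP1B, a giant lipoprotein receptor gene of 1900 kb, had 0 counts in all 4 libraries, where 3 counts, the limit that 0 allows, equal 0.126 to 0.148 CPM. No fold is given for either.

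By length within the list, none of 13 genes of 1000 kb or more rose and 2 fell (median log2 fold change -0.14), 1 of 26 genes of 500 to 1000 kb rose and 1 fell (-0.01), and 1 of 18 genes of 300 to 500 kb rose and 1 fell (0.00). The same classes over all coding genes include the listed genes. From 1000 kb, 0 of 34 rose and 4 fell, among them the listed GPC6 and PRKG1. Between 500 and 1000 kb 6.92% of 159 rose and 11.3% fell, and between 300 and 500 kb 5.15% of 330 rose and 6.36% fell. Of all 15356 genes tested, 6.66% rose and 4.18% fell. Across the 57 genes, Spearman's correlation between span and log2 fold change was -0.22, and these genes share the same 4 libraries. For the same 57 genes, the difference between the replicates of a group had a correlation with span of 0.15 in control and 0.26 in knockdown, of the other sign and of similar size. Over all 12542 coding genes it was -0.02 with span and -0.03 with the largest intron. Over all coding genes, the replicate differences had a correlation with span of -0.12 in control and -0.10 in knockdown, larger in size than that of the fold change, and of -0.26 and -0.27 with transcript length.

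Coding genes of 300 kb or more outside the list serve as a comparison, and 466 were tested. Of these 26 rose (5.58%) and 39 fell (8.37%), with a median log2 fold change of -0.07. Together with the list, 523 coding genes of this length had 28 that rose (5.35%) and 43 that fell (8.22%), while 7.52% of all coding genes rose and 4.89% fell. Of the 12019 shorter coding genes 915 rose (7.61%) and 570 fell (4.74%), with a median of -0.02. Without control replicate 1 the called genes of the long class no longer fell more often than they rose. The median of the class minus that of coding genes was -0.0539 in the main fit and -0.0269 without control replicate 1. It was -0.0647 without control replicate 2, -0.0834 without knockdown replicate 1 and -0.0432 without knockdown replicate 2. The median differences between the replicates of a group in the long class were -0.04 in control and -0.04 in knockdown, against -0.07 between the conditions. With genes below the filter included, the 814 coding genes of 300 kb or more took 2.30% to 2.49% of the counts in each library, with overlapping ranges in the groups.

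**Figure D3:**
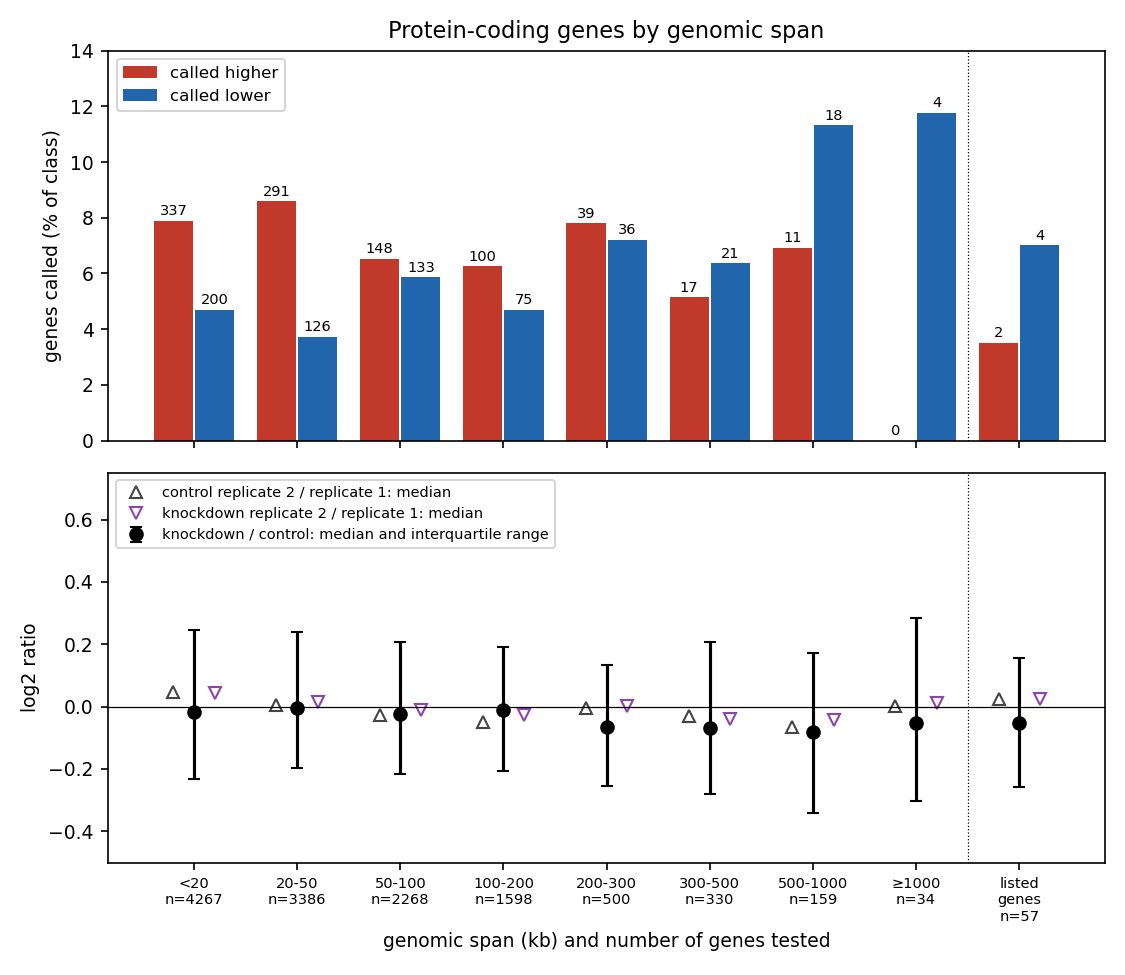
Upper panel, percent of protein-coding genes called higher and lower in TOP2B knockdown by class of genomic span, and lower panel, median and quartiles of the log2 fold change beside the median difference between replicates in each class. The share called lower exceeds the share called higher in the 3 classes from 300 kb, and the medians stay between -0.08 and 0.00 in all classes.

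**Figure D4:**
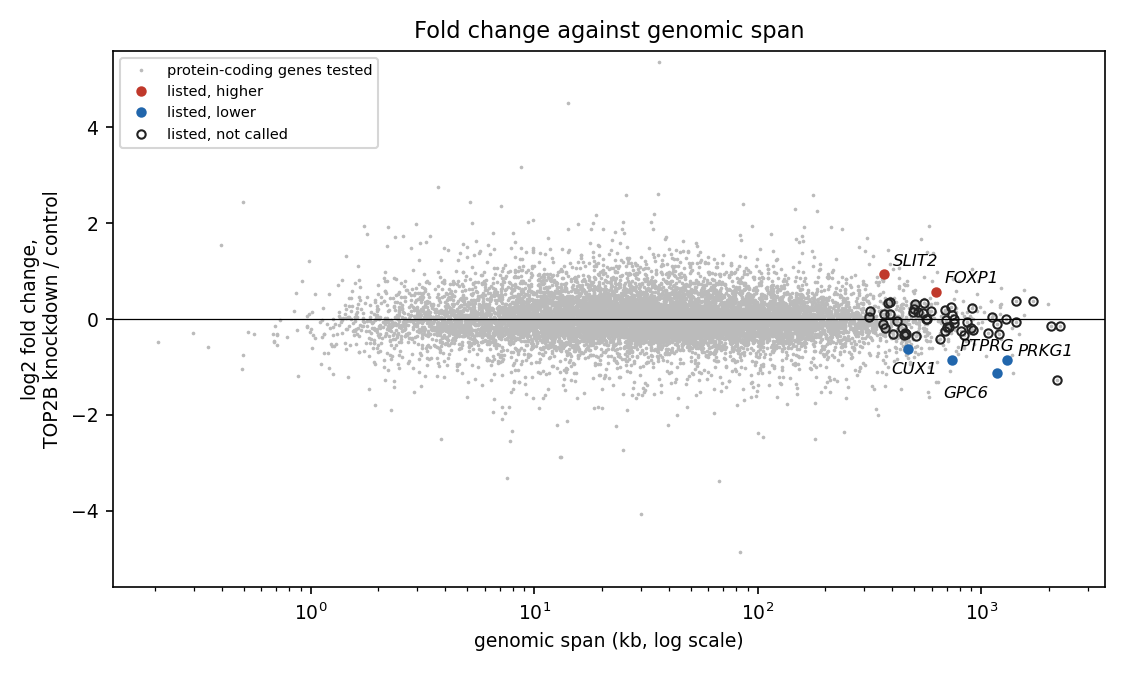
Log2 fold change (TOP2B knockdown over control) of the 12542 protein-coding genes tested against genomic span in kb on a log scale, with the listed genes as circles. The 51 listed genes that were not called lie around 0 across the whole range of spans, apart from DLG2 at -1.28.

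The word GCAACC in 3′ UTRs had been found in these same libraries to go with higher values in the knockdown, so its use here is a description and no independent support. It stood at least once in the 3′ UTR of 18 of the 57 genes (31.6%), against 23.3% of all coding genes tested, and the 3′ UTRs of the list were longer (median 3321 against 1353 nt). For FOXP1 and PRKCA 2 sites each are shown, because both genes carry the word more than once and their fold changes have opposite signs. Each line gives 26 bases of the GENCODE v44 transcript with the word in capitals, at chr3:70958178-70958203 and chr3:70957372-70957397 on the minus strand for FOXP1 and at chr17:66806293-66806318 and chr17:66806691-66806716 on the plus strand for PRKCA.
FOXP1 site 1: tttttttgcaGCAACCattaataaat
FOXP1 site 2: ataggctattGCAACCtgagaaagag
PRKCA site 1: ggtggtcctgGCAACCctgagtagaa
PRKCA site 2: ggccttccctGCAACCccaacaccca
Of the 18 listed genes with the word 1 rose (5.56%) and none fell (median log2 fold change 0.12). Of the 39 without it 1 rose (2.56%) and 4 fell (10.3%), with a median of -0.09. Over all coding genes, 12.6% of 2927 with the word rose and 4.10% fell, against 5.98% and 5.13% of 9615 without it. In all coding genes of 300 kb or more, 21 rose and 11 fell among 187 with the word, and 7 rose and 32 fell among 336 without it (medians 0.02 and -0.10). In shorter coding genes, 347 rose and 109 fell among 2740 with the word, and 568 rose and 461 fell among 9279 without it.

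The machinery that carries the polymerase through genes was read from a list of 36 genes for topoisomerases and elongation factors, of which 34 passed the filter. Apart from TOP2B, the target of the siRNA, which fell, CDK9 and TOP1MT rose. They are 6.06% of the 33 genes other than TOP2B, beside 10.8% of all genes. CDK9, the kinase that releases paused polymerase, had 41.3 and 43.3 CPM in control and 66.0 and 65.6 CPM in knockdown libraries (log2 fold change 0.64, SE 0.12, edgeR adjusted p = 0.00827). TOP1MT, the mitochondrial topoisomerase I, had 10.3 and 11.5 against 15.2 and 17.2 CPM (log2 fold change 0.57, SE 0.15, edgeR adjusted p = 0.0413), with a DESeq2 adjusted p of 0.0746. Its edgeR adjusted p was 0.161 without control replicate 1, 0.0508 without control replicate 2 and 0.186 without knockdown replicate 2. Neither gene had overlapping groups.

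TOP1, the nuclear enzyme that relaxes DNA ahead of the polymerase by nicking 1 strand, had 183.7 and 180.9 CPM in control and 183.5 and 187.5 CPM in knockdown libraries, with a log2 fold change of 0.03 (95% interval -0.24 to 0.30, edgeR adjusted p = 0.924). TOP2A, the type II enzyme of dividing cells, had 499.2 and 431.6 against 565.2 and 538.7 CPM, with a log2 fold change of 0.25 (95% interval -0.08 to 0.57, edgeR adjusted p = 0.322). The groups of TOP1 overlapped, and both knockdown libraries lay above the control libraries for TOP2A without a call. The median log2 fold change of the 33 genes other than TOP2B was -0.01.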

How the data were processed

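RNA of 4 libraries was measured. Per the labels and methods, the authors checked single-end 65-bp reads of TruSeq libraries from polyA RNA with FastQC 0.11.6, mapped them to GRCh38 with STAR 2.5.4a and counted reads per gene with GENCODE v24. The deposited values are raw counts. The count columns are tagged as stranded and paired-end, whereas the labels and methods give single-end reads and the methods set STAR's signal output to unstranded. This conflict was not resolved, and the sources used here do not give the setting for the counts. Another 4 columns, identical second copies, were not used.

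The filter kept genes that reached 10 counts in 2 or more libraries. They were tested with the quasi-likelihood test of edgeR 4.0.16 in R 4.3.3, with TMM normalization, a term for condition alone and Benjamini-Hochberg adjustment over 15356 genes (threshold 0.05, common dispersion 0.0117). CPM values of genes are scaled by the TMM library size, and sums over marker lists and limits for 0 counts by the library total. Total counts of 20310259 to 23887013 set the precision, and the intervals hold for the counting and replicate error seen here alone. Positions, spans and 3′ UTRs came from GENCODE v44 on GRCh38, which held 98.9% of the tested genes. Exon bases shared with a gene on either strand were counted.

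The members, their role groups and the other lists were chosen with earlier results of these data known. Every member may be named, and each called member was given with its values in every library. Alternatives were DESeq2 1.42.0 and its size factors, library size alone, no filter, a mean of at least 100 counts, the replicate number as a block and leaving out each library. The scripts were tested on simulated data.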

Additional observations from a re-analysis of the deposited data

How the results depend on the processing

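In the main fit 6 of 57 listed genes and 1665 of all 15356 genes were called. With the size factors of DESeq2 these were 6 and 1619, and with library size alone 5 and 1613. The DESeq2 Wald test called 5 of 56 listed genes and 1562 of all 13275. Without a filter, 8 of 58 listed genes (DLG2 and EXOC6B added) and 2343 of all 29440 were called. At a mean of at least 100 counts 1272 of all 10893 genes were called, and the called genes of the list were 5 of 53. Without 1 library fewer genes were called, in the list, in coding genes of 300 kb or more and among all genes. A fit without a library leaves 1 library in a group, which is assumed to vary like the others. Without 1 library the list's median log2 fold change ran from -0.0505 to -0.0108, and its difference from the coding median from -0.0408 to -0.00497. The count of called coding genes of 300 kb or more ran from 49 to 65 and their median minus the coding median from -0.0834 to -0.0269, and called elongation and topoisomerase genes numbered 2 to 3. The comparisons with the coding median and the class of 300 kb or more were added after seeing the data.

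With the replicate number as a block, 6786 of all 15356 genes were called (3440 higher and 3346 lower). In that fit 34 of the 57 listed genes were called (15 higher and 19 lower). The same fit called 21 of the 34 elongation and topoisomerase genes and 269 of the 523 coding genes of 300 kb or more. Deviations of same-numbered libraries correlated at 0.479, and with 2 numbers this does not establish a pairing.

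Near 0, the sign of some uncalled log2 fold changes turned. TBC1D5 was -0.0062 with DESeq2, UTRN -0.0029 with size factors, -0.012 with DESeq2 and -0.0012 with the block, and SMYD3 -0.0063 with size factors, -0.00033 with library size alone, -0.014 with DESeq2 and -0.0056 without a filter. Without 1 library, the values ran from -0.10 to 0.011 for MAGI2, -0.0040 to 0.18 for LPP, -0.11 to 0.14 for TBC1D5, -0.28 to 0.13 for VPS13B, -0.18 to 0.0039 for LRBA, -0.011 to 0.23 for TRIO, -0.19 to 0.19 for UTRN, -0.17 to 0.17 for SMYD3, -0.047 to 0.046 for SUPT3H, -0.25 to 0.057 for ROBO1, -0.086 to 0.0065 for MAD1L1, -0.038 to 0.030 for CDKAL1, -0.065 to 0.14 for WWOX, -0.36 to 0.038 for MACROD2 and -0.41 to 0.034 for IMMP2L. The cause was not tested. All members span 300 kb or more, so dropping shorter genes changed nothing. Of the other members, 24 moved by more than 1.5 times without 1 library and kept their sign, none of them called, among them PTPRK (0.14 to 0.59), TRAPPC9 (0.031 to 0.44) and VTI1A (-0.30 to -0.048). Depth left FHIT and LRP1B untested, and among tested members DLG2 (SE 0.41), ZBTB20 (0.28) and PRKG1 (0.24) had the largest standard errors.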
